A study of Mus musculus with 4 samples.

Results

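Rab GTPases are the largest family of small GTPases, and each marks a set of membrane compartments. Members were the genes of the deposited table with library values whose symbol is Rab followed by a number and its letter, which gave 43 Rab genes among 9244 genes with library values and 9796 genes in the table. RNA was sequenced from long-term haematopoietic stem cells, the marrow cells that sustain all blood lineages, of Sin3B KO mice (2 libraries) and WT mice (2 libraries). All were C57BL/6 mice aged 8 to 12 weeks, and the sort of both genotypes was for LSK cells (Sca-1 and Kit present, lineage markers absent) that lacked CD34 and Flk2. Sin3B, a corepressor, holds histone deacetylases at the promoters they act on. The labels do not say how the knockout was made, whether all cells carry it, or whether the libraries of a genotype came from separate animals, so the spread behind each p-value is that of these libraries and may be technical.

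A Rab protein cycles between a GTP-bound form on membranes and a GDP-bound form in the cytosol. Exchange factors load GTP, GTPase-activating proteins end the active state, and effectors such as tethers, motors and lipid enzymes bind the active form. Prenyl groups added to the tail of the protein anchor it, and the identity of the Rab on a membrane sets which vesicles bud, move and fuse there. In blood cells the family is best known for granules: Rab27a, Rab27b, Rab32 and Rab38 serve the dense granules of platelets and the related granules of leukocytes and pigment cells.

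Close paralogs can be told apart in sequence: they differ even over the stretch that codes the phosphate-binding loop, the part of the protein that holds the nucleotide. That stretch was found in 41 of the 43 coding sequences of the GENCODE M21 annotation (GRCm38), in all but Rab40b and Rab40c. The 24 bases are shown for the pairs Rab2, Rab3 and Rab4, in which the share of each gene did not overlap between the genotypes, and capitals mark bases that differ within a pair.
Rab2a: ggCgacacaggtgtTggTaaAtcG
Rab2b: ggAgacacaggtgtGggGaaGtcA
Rab3a: gggaacagcagcgtgggcaaAacC
Rab3d: gggaacagcagcgtgggcaaGacA
Rab4a: ggAaAtgcGggaactggcaaatcT
Rab4b: ggCaGtgcTggaactggcaaatcA
The Rab3d stretch lies in exon 2 at chr9:21915825-21915848 on the minus strand, and the Rab4a stretch in exon 2 at chr8:123823840-123823863 on the plus strand. The Rab2a stretch crosses from exon 1 to exon 2 within chr4:8535899-8561165 on the plus strand, and that of Rab2b does the same within chr14:52278972-52279205 on the minus strand. Rab2a and Rab2b differ at 5 of the 24 bases, Rab4a and Rab4b at 4, and Rab3a and Rab3d at 2. Over whole coding sequences the 10 pairs of paralogs compared were identical at 63.4% to 78.5% of bases, and the longest run shared by a pair was 38 bases, in Rab1 and Rab1b.

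The libraries held 12637960 and 13700630 reads in the listed genes in Sin3B KO cells, against 9950979 and 11754067 in WT cells, and the median Rab gene had 765 to 857 reads in the KO libraries and 658 to 758 in the WT libraries. Values are read counts divided by the library's size factor, called normalised read counts here. The read numbers take the step of which all values of a library are whole multiples as 1 read. Sin3b itself had 755 and 647 in Sin3B KO cells, against 1522 and 1825 in WT cells, so both KO libraries were lower and reads of the gene remained (log2 fold change -1.25, SE 0.22; limma, Benjamini-Hochberg adjusted p = 0.548). The authors' deposited table gave Sin3b a log2 fold change of -1.03 with an adjusted p of 0.00249. Defining markers of haematopoietic stem cells were present in all libraries: the 16 measured summed to 91539 and 108219 in Sin3B KO cells, against 98407 and 100603 in WT cells.

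The Rab transcriptome of these cells was led by Rab38, which works in the making of lysosome-related organelles such as platelet dense granules and melanosomes. Divided by exon length, Rab38 stood at 3995 ± 509 normalised read counts per kb in Sin3B KO cells and 3732 ± 568 in WT cells (SD, n = 2 each), which in WT was rank 66 among the 9156 genes with a length. It made up 19.9% and 22.9% of the summed Rab level per kb in the KO libraries, against 19.6% and 23.8% in the WT libraries. Rab1b, which carries cargo from the endoplasmic reticulum to the Golgi, came next with 1364 ± 33.6 per kb in Sin3B KO cells and 1312 ± 29.8 in WT cells. Rab11a, the main Rab of recycling endosomes, followed with 1014 ± 121 in Sin3B KO cells and 887 ± 318 in WT cells. In WT cells Rab38 and Rab1b stood apart from the next gene by more than their spread when summed exon length was used. With the longest transcript as length, only 2 of the 3 highest genes stayed among the 3 highest. Rab37 then took the place of Rab11a and was about level with Rab1b. In values not divided by length Rab38 was also first, with means of 6301 in Sin3B KO cells and 5885 in WT cells. The means of Rab37 (5281 and 4062) and Rab8a (4478 and 3399) were then above those of Rab1b (3099 and 2981) and Rab11a (3034 and 2652). By summed exon length, Rab11a, Rab31, Rab32, Rab37, Rab8a, Rab1 and Rab27a, at 887 to 588 per kb, lay within 1 SD of Rab11a. The WT libraries of Rab11a were far apart at 1112 and 661. Among the genes within 1 SD of Rab11a, Rab11a itself, Rab31, Rab32 and Rab1 were above Rab27a in all 4 libraries. At the low end were Rab36, Rab23 and Rab21, with 24.9 ± 22.5, 34.8 ± 2.4 and 39 ± 4.99 per kb in WT cells. Grouped by role, the 3 Rabs of lysosome-related organelles held 28.6 ± 1.95% of the summed Rab level per kb in Sin3B KO cells and 29.6 ± 2.88% in WT cells. The 11 Rabs of the endoplasmic reticulum and Golgi held 19.6 ± 0.557% in Sin3B KO cells and 20.7 ± 1.32% in WT cells, and the 9 secretory Rabs 22.6 ± 0.277% in Sin3B KO cells and 19.8 ± 1.43% in WT cells. The secretory share was higher without overlap, at 22.8% and 22.4% in the KO libraries, against 20.8% and 18.8% in the WT libraries. The share of the 2 late endosome Rabs was lower without overlap, at 3.47% and 2.49% in the KO libraries, against 3.54% in both WT libraries. Sin3B KO 1 was thus nearly level with WT. The share of the 6 remaining Rabs was also lower without overlap, at 2.49 ± 0.116% in Sin3B KO cells and 2.92 ± 0.35% in WT cells. The shares of the other role groups overlapped. Among single genes 44.1% do not overlap between the genotypes, and the role shares were not tested. All Rab genes together took 0.49% and 0.503% of the listed signal in Sin3B KO cells, against 0.489% and 0.462% in WT cells.

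**Figure D1:**
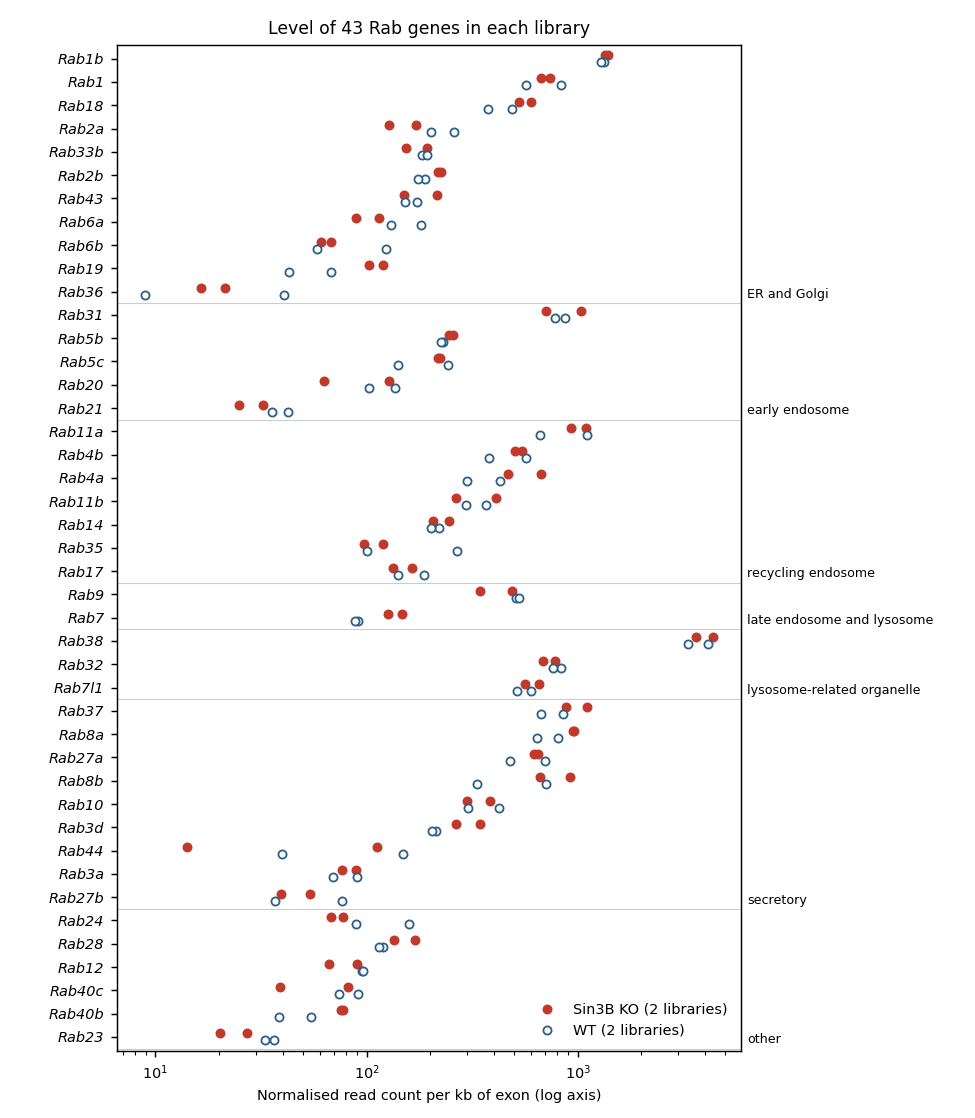
Normalised read count per kb of exon (log axis) of each of the 43 Rab genes, by role group. Filled red points are the 2 Sin3B KO libraries and open blue points the 2 WT libraries. Rab38 lies above all other Rab genes in all 4 libraries, and most genes show KO and WT points within a narrow range, with Rab44 and Rab36 the widest.

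Between Sin3B KO and WT cells, no Rab gene passed the threshold of a Benjamini-Hochberg adjusted p under 0.05 in limma. Over all 9244 genes the same fit called 0 (0%), although 824 genes (8.91%) had an unadjusted p under 0.05. Of the 43 Rab genes 2 had such a p, Rab4a and Rab3d, both higher in KO cells. Of all genes, 4.97% were called higher in this way and 3.95% lower. Without WT 1, 8 Rab genes (18.6%) had such a p, as did 16.1% of all genes. Without WT 2 there were 5 (11.6%, against 12.9% of all genes), and without Sin3B KO 1 there was 1 (2.33%, against 3.3%). In these fits the lone library of a genotype is assumed to vary like the other genotype's. In the authors' deposited table, an adjusted p under 0.05 was given to 31 of 9796 genes (0.316%) and to no Rab gene. That table gave 931 genes (9.5%) an unadjusted p under 0.05, again with Rab4a and Rab3d as its 2 Rab genes. The log2 fold change was above 0 for 24 Rab genes and below 0 for 19, against 53.4% of all genes above 0. The median over the Rab genes was 0.06 with quartiles of -0.32 and 0.26, beside a median of 0.03 over all genes. With the libraries rescaled to the same upper quartile, 18 Rab genes were above 0 and 25 below, with a Rab median of -0.06 beside -0.08 over all genes. In 19 of the 43 Rab genes (44.2%) the KO libraries lay wholly above or below the WT libraries, which holds for 44.1% of all genes. Of these, 12 were higher in KO cells, where 24.7% of all genes are, and 7 lower, where 19.4% are. An absolute log2 fold change of at least 0.5 was seen in 13 Rab genes (30.2%), against 19.7% of all genes. Of the 18 Rab genes with a mean value under 500, 10 were among these (55.6%, against 29.9% of all genes under 500). Of the 25 with a mean of at least 500, 3 were (12%, against 13.7% of all genes at that level).

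**Figure D2:**
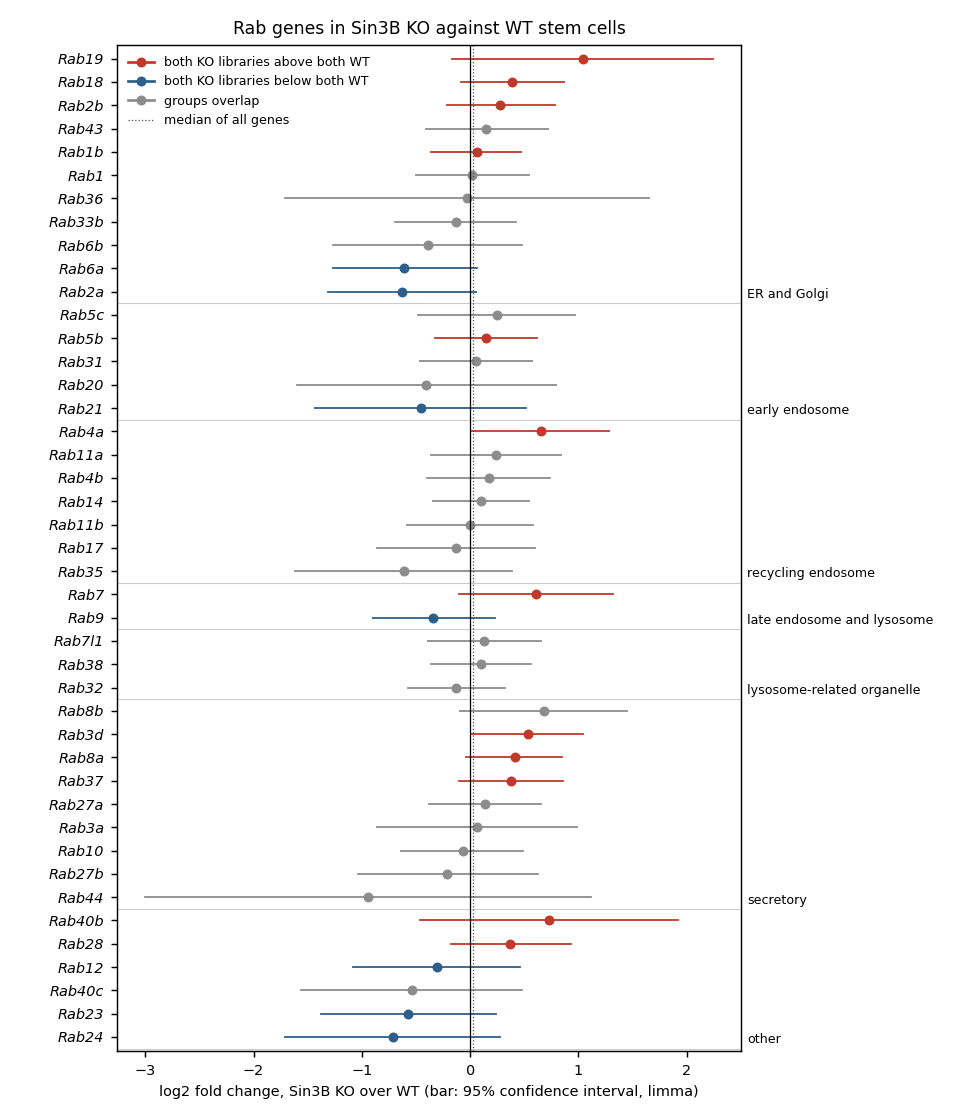
Log2 fold change of Sin3B KO over WT for each of the 43 Rab genes, with 95% confidence intervals from limma (bars), by role group. Red marks the 12 genes with both KO libraries above both WT libraries, blue the 7 with both below, and grey those that overlap. Only the intervals of Rab4a and Rab3d lie wholly above 0, and their lower ends are at 0.01.

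Direction went with level. Among the 25 Rab genes with a mean of at least 500, 19 lay above 0 in log2 fold change (median 0.14). Among the 18 with a mean under 500, 13 lay below 0 (median -0.40). The whole table was split likewise: 3613 of 5807 genes with a mean of at least 500 were above 0 (median 0.11), and 2117 of 3437 genes under 500 were below 0 (median -0.14). What sets this relation to level was not tested.

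Among Rabs of the endoplasmic reticulum and Golgi, the traffic between both organelles is run by Rab1 and Rab2 and the return from the Golgi by Rab6. The 11 measured of 17 listed had a median log2 fold change of 0.02, none with an unadjusted p under 0.05. Rab1b had 3153 and 3045 in Sin3B KO cells, against 3029 and 2934 in WT cells, and its paralog Rab1 (now Rab1a) had 2802 and 2540 in Sin3B KO cells, against 3181 and 2174 in WT cells. The log2 fold changes were 0.06 for Rab1b, without overlap, and 0.02 for Rab1, with overlap, and both turned negative with upper quartile scaling, at -0.06 and -0.09. Rab2a, which tethers vesicles between the endoplasmic reticulum and the Golgi, had 273 and 366 in Sin3B KO cells, against 431 and 554 in WT cells. Rab2b, its paralog, had 938 and 907 in Sin3B KO cells, against 786 and 731 in WT cells. Neither gene overlapped between the genotypes, and they lay in opposite directions, Rab2a below WT (log2 fold change -0.63, 95% confidence interval -1.31 to 0.05) and Rab2b above it (0.28, -0.21 to 0.78). Rab6a, which recruits motors to Golgi-derived carriers, had 332 and 429 in Sin3B KO cells, against 486 and 679 in WT cells. Its paralog Rab6b had 308 and 343 in Sin3B KO cells, against 292 and 626 in WT cells, so only Rab6a was free of overlap, at a log2 fold change of -0.61. Rab18, found on the endoplasmic reticulum and on lipid droplets, was higher without overlap, with 4140 and 3597 in Sin3B KO cells, against 3366 and 2571 in WT cells (0.39, -0.08 to 0.87). The highest fold change of any Rab gene was that of Rab19, a weakly expressed member with 162 and 189 in Sin3B KO cells, against 67.3 and 107 in WT cells. Its log2 fold change of 1.04 had a confidence interval of -0.17 to 2.24. Rab36, the other low member, had 102 and 132 in Sin3B KO cells and lay between the WT libraries, at 252 and 55.4. The others of this group, Rab33b and Rab43, which both act at the Golgi, overlapped between the genotypes, with log2 fold changes of -0.13 and 0.15. Of the exon bases of Rab43, 75.4% overlap another gene model, mainly 1 on the same strand.

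Rab5 drives fusion of early endosomes, and Rab4 and Rab11 return receptors from endosomes to the cell surface by a fast and a slow route. The 5 early endosome Rabs had log2 fold changes of -0.45 to 0.25, and of these Rab5b was higher without overlap, at 1037 and 1080 in Sin3B KO cells, against 963 and 947 in WT cells, while Rab5c, Rab20 and Rab31 overlapped. At the low end was Rab21, known for moving integrins through endosomes, with 125 and 163 in Sin3B KO cells, against 179 and 215 in WT cells. Those libraries did not overlap, but the confidence interval of -1.43 to 0.52 spans 0. Of the 7 recycling Rabs, Rab4a (ENSMUSG00000019478) had 1174 and 821 in Sin3B KO cells, against 524 and 749.7 in WT cells. Both KO libraries were above both WT libraries, a log2 fold change of 0.65 with an SE of 0.28 and a limma Benjamini-Hochberg adjusted p of 0.548. The value was 0.39 without WT 1 or Sin3B KO 1 and 0.90 without WT 2 or Sin3B KO 2. The authors' deposited table gave Rab4a a log2 fold change of 0.48 with an adjusted p of 0.512. The paralog Rab4b had 999 and 1067 in Sin3B KO cells, against 750.2 and 1116 in WT cells, and overlapped. Rab11a had 3290 and 2779 in Sin3B KO cells, against 3326 and 1979 in WT cells, and Rab11b had 1617 and 2526 in Sin3B KO cells, against 1813 and 2253 in WT cells. Both Rab11 genes overlapped, with log2 fold changes of 0.24 and 0.00. So did Rab14, Rab17 and Rab35, at 0.10, -0.13 and -0.61, and Rab35, which also works in fast recycling, had 275 and 334 in Sin3B KO cells, against 284 and 758 in WT cells.

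On the degradative route, Rab7 takes late endosomes to lysosomes and Rab9 returns receptors from late endosomes to the Golgi. Rab7 had 383 and 333 in Sin3B KO cells, against 237 and 230.5 in WT cells, higher without overlap (log2 fold change 0.61, 95% confidence interval -0.10 to 1.32). Rab9 had 849.6 and 605 in Sin3B KO cells, against 890.5 and 919.8 in WT cells, lower without overlap (-0.34, -0.90 to 0.23). The genes of this group thus lay on opposite sides of 0, neither with a limma unadjusted p under 0.05. For Rab7, 11.4% of its 50-base words also occur in other genes, mainly a processed pseudogene, so its reads can be less certain. The same holds for 6.2% of the words of Rab9. Of the other Rab genes, Rab5b (9.8%), Rab11b (9.49%) and Rab8b (5.46%) had the largest such shares, also mainly with a processed pseudogene. Rab7l1 (now Rab29), a Golgi and lysosome Rab, is named after Rab7 but had 824 and 966 in Sin3B KO cells, against 752 and 880.3 in WT cells, and overlapped. Of the Rabs of lysosome-related organelles, Rab38 had 5733 and 6868 in Sin3B KO cells, against 5252 and 6518 in WT cells, and Rab32 had 1817 and 1604 in Sin3B KO cells, against 1946 and 1782 in WT cells. All 3 Rabs of this group overlapped between the genotypes, with log2 fold changes of -0.13 to 0.13, and the 95% confidence interval of Rab38 ran from -0.36 to 0.56.

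Secretory Rabs dock vesicles and granules at the plasma membrane. Rab3d (ENSMUSG00000019066), found on secretory granules, had 1109 and 1446 in Sin3B KO cells, against 899.6 and 858 in WT cells. Both KO libraries were above both WT libraries, a log2 fold change of 0.53 with an SE of 0.23 and a limma Benjamini-Hochberg adjusted p of 0.548. It was 0.34 without Sin3B KO 2 and 0.72 without Sin3B KO 1. The authors' deposited table gave Rab3d a log2 fold change of 0.44 with an adjusted p of 0.509. Its paralog Rab3a, best known from synaptic vesicles, had 171 and 198 in Sin3B KO cells, against 155 and 199.8 in WT cells, and overlapped. Rab8a, which carries cargo from the Golgi to the plasma membrane and the cilium, had 4466 and 4489 in Sin3B KO cells, against 3015 and 3783 in WT cells. Rab37, known from mast cell granules, had 4676 and 5887 in Sin3B KO cells, against 3582 and 4542 in WT cells. Both were higher without overlap, with log2 fold changes of 0.41 (95% confidence interval -0.04 to 0.85) and 0.38 (-0.10 to 0.86). Rab8b, the paralog of Rab8a, had 4344 and 3127 in Sin3B KO cells, against 3360 and 1578 in WT cells, so the genotypes overlapped and the libraries numbered 1 were the higher of each genotype. Its log2 fold change of 0.68 was 1.22 without WT 1 and 0.13 without WT 2. Of 9 secretory Rabs, 6 were above 0 in log2 fold change, and the other three were Rab10, Rab27b and Rab44. Rab27a, the Rab of melanosomes and lytic granules, had 2418 and 2517 in Sin3B KO cells, against 2702 and 1860 in WT cells, and overlapped (0.14).

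Of the remaining 6 Rabs, 5 did not overlap between the genotypes, 2 higher and 3 lower, where 44.1% of all genes do not. Rab24, linked to autophagy, had 137 and 155 in Sin3B KO cells, against 180.1 and 320.5 in WT cells. Rab23, a negative regulator of Hedgehog signalling in mouse embryos, had 167 and 225 in Sin3B KO cells, against 302 and 274 in WT cells. Both were lower in KO cells, with log2 fold changes of -0.71 and -0.57, and of the exon bases of Rab24, 62.4% overlap Prelid1 on the opposite strand. Rab40b, a Rab with a SOCS box that joins a ubiquitin ligase, had 152 and 155 in Sin3B KO cells, against 77.5 and 109.8 in WT cells (log2 fold change 0.73, 95% confidence interval -0.46 to 1.92). Its paralog Rab40c had 121 and 251 in Sin3B KO cells, against 229 and 282 in WT cells, and overlapped. Rab28, known from photoreceptor cilia, was higher without overlap, at 767 and 614 in Sin3B KO cells, against 539 and 519 in WT cells, and Rab12, which sends transferrin receptor to lysosomes, lower, at 201 and 272 in Sin3B KO cells, against 287 and 293 in WT cells.

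The balance within pairs of paralogs was read from levels per kb, as the share of the first gene in the sum of both. In 4 of 11 pairs the shares of the genotypes did not overlap, which among single genes holds for 44.1%. Rab2a made up 36.2% and 44% of its pair in Sin3B KO cells, against 51.7% and 59.7% in WT cells, so Rab2b was the larger in KO cells and Rab2a in WT cells. With the longest transcript as length, Rab2a averaged 36.6% in Sin3B KO cells and 51.9% in WT cells. Rab3a made up 22.5% and 20.5% in Sin3B KO cells, against 24.5% and 30.5% in WT cells, and Rab3d was the larger in all 4 libraries. Rab4a made up 56.9% and 46.3% of its pair in Sin3B KO cells, against 43.9% and 43% in WT cells. Rab40b made up 65.9% and 48.7% in Sin3B KO cells, against 34.3% and 37.5% in WT cells. The log2 ratio of first to second gene differed by -0.91 for Rab2, -0.46 for Rab3, 0.47 for Rab4 and 1.27 for Rab40. These ratios were not tested. The pairs Rab1, Rab5, Rab6, Rab8, Rab11, Rab27 and Rab32 with Rab38 overlapped, and Rab27a held 90.1% to 94.1% of its pair in every library. In the GENCODE M21 annotation, 64% of the exon bases of Rab2b and 65% of those of Rab4b overlap another gene model, so these levels may depend on how shared reads were counted.

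**Figure D3:**
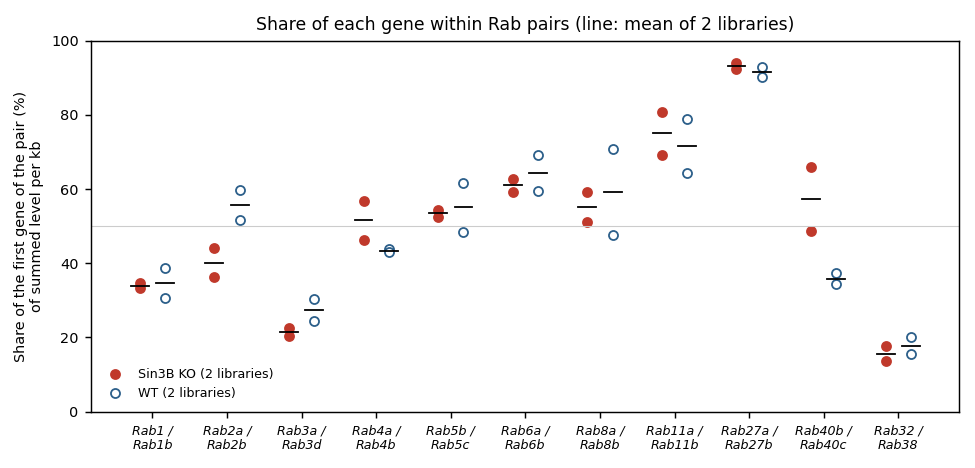
Share of the first gene in the summed level per kb of 11 pairs of Rab genes, in percent. Red filled points are Sin3B KO libraries, blue open points WT libraries, and lines the mean of 2 libraries. Points of the genotypes are apart for Rab2, Rab3, Rab4 and Rab40, although the KO libraries of Rab40 are far from each other, at 65.9% and 48.7%. Rab8 and Rab11 show spreads between libraries of one genotype wider than the gap between the genotype means of the same pair.

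Rab44 stood apart for its spread within each genotype. It is a large Rab, studied in mice for granule release by mast cells, with a coding sequence of 2922 bases for 973 residues; the shortest of the other Rab genes, Rab31, codes 195. Rab44 (ENSMUSG00000064147) had 567 in Sin3B KO 1 and 749 in WT 1, against 71.3 in Sin3B KO 2 and 201 in WT 2. Both libraries numbered 1 were above both libraries numbered 2, and the genotypes overlapped (log2 fold change -0.94, SE 0.90). The genotype value rested on single libraries, at 0.55 without Sin3B KO 2 and -2.43 without Sin3B KO 1. In the limma fit with genotype and number, the libraries numbered 1 were higher by 2.43 on the log2 scale (SE 0.33, Benjamini-Hochberg adjusted p = 6.6e-04). That fit called 195 of 9244 genes (2.11%), and Rab44 was the only Rab gene among them and the only Rab gene at least 2-fold apart in both genotypes, as 1.82% of all genes are. Rab8b came next with a difference of 0.78 (limma, Benjamini-Hochberg adjusted p = 0.0525), which passed with trimmed mean or equal-total scaling (adjusted p = 0.0109 and 0.00761).

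What the numbers mark is not stated in the labels, which give 1 and 2 in the titles but 1 and 3 in the descriptions. Some lists of blood lineage markers were higher in the same libraries as Rab44. The 13 measured neutrophil and monocyte markers summed to 55335 in Sin3B KO 1 and 80054 in WT 1, against 24813 in Sin3B KO 2 and 14852 in WT 2, and 12 of the 13 were higher in both libraries numbered 1. The 3 measured of 10 mast cell and basophil markers summed to 843 in Sin3B KO 1 and 2523 in WT 1, against 426 in Sin3B KO 2 and 83.1 in WT 2, all 3 higher in both libraries numbered 1. All 6 measured B lineage markers were also higher there, as were 8 of 11 erythroid markers and the 2 measured of 10 T and NK markers. Other lists did not follow: of 6 dendritic and macrophage markers 2 were higher in both libraries numbered 1, and of 12 megakaryocyte and platelet markers 4. Of the 16 stem cell markers, 1 was higher in both libraries numbered 1 and 8 in both libraries numbered 2. The part of other cell types in the Rab44 values was not tested. Of all Rab genes, 18 of 43 (41.9%) separated the numbers in both genotypes without overlap, 7 with number 1 higher and 11 with number 2 higher, against 35.9% of all genes. Between the genotypes, the sums of erythroid markers overlapped, at 24212 and 9205 in Sin3B KO cells, against 11130 and 6765 in WT cells. All 11 had a log2 fold change above 0, 3 of them (27.3%, against 44.1% of all genes) without overlap. The part of erythroid cells in the Rab differences between genotypes was not tested. Of the measured markers, 1 of the 6 B lineage, 1 of the 11 erythroid and 1 of the 2 T and NK ones were at or under a value of 3 in a library. In sorted bulk samples fewer cells of a type and less RNA per cell cannot be told apart.

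**Figure D4:**
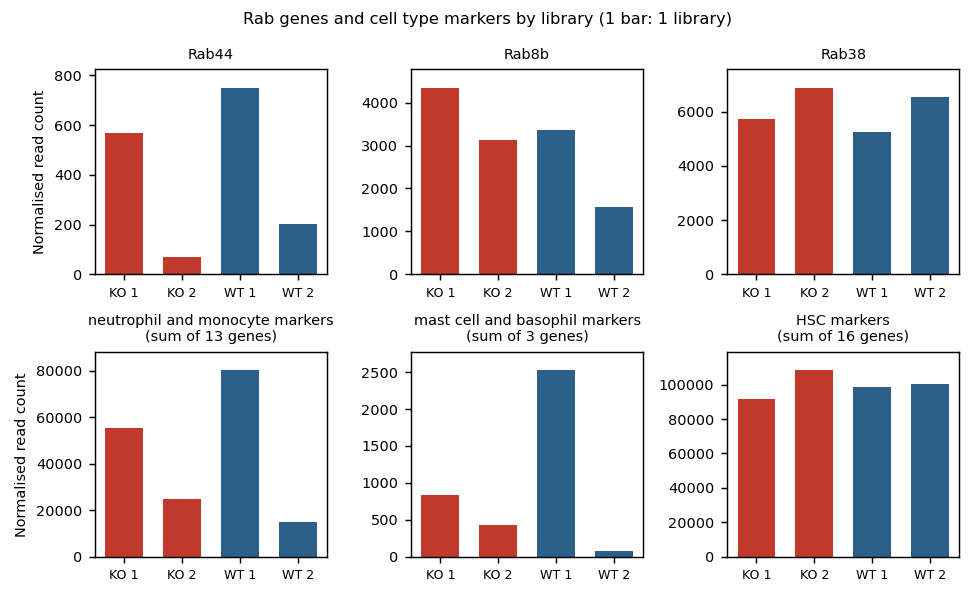
Normalised read count of Rab44, Rab8b and Rab38 and of summed markers of neutrophils and monocytes (13 genes), mast cells and basophils (3 genes) and haematopoietic stem cells (16 genes) in each library; 1 bar is 1 library, red for Sin3B KO and blue for WT. Rab44 and the neutrophil and mast cell sets of markers are higher in the library numbered 1 of each genotype, while Rab38 and the stem cell markers are not.

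Of the 132 measured genes for proteins that work on Rabs, 61 were above 0 in log2 fold change and 71 below. Their median was -0.06 beside 0.03 over all genes; 0 passed the adjusted threshold in limma, and 13 (9.85%, against 8.91% of all genes) had an unadjusted p under 0.05, 4 higher and 9 lower. The libraries did not overlap for 73 partner genes (55.3%, against 44.1% of all genes). Among 48 effectors 7 (14.6%) had such a p, 2 higher and 5 lower, and 33 (68.8%) did not overlap. Myo5a, the myosin that Rab27a holds through its adaptors, had 463 and 573 in Sin3B KO cells, against 847 and 896 in WT cells. Bicd2, the dynein adaptor that binds Rab6, had 231 and 296 in Sin3B KO cells, against 461 and 714 in WT cells. Ocrl, an inositol phosphatase bound by many Rabs, had 1107 and 1172 in Sin3B KO cells, against 1657 and 1573 in WT cells. All 3 were lower without overlap, with log2 fold changes of -0.76, -1.13 and -0.50 (limma, Benjamini-Hochberg adjusted p = 0.548 for each).

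Exchange factors lay close to even, with a median of -0.04 over 43 genes. Ankrd27, which loads Rab21 and binds Rab32 and Rab38, had 3400 and 3482 in Sin3B KO cells, against 2643 and 2438 in WT cells. Mon1a, part of the complex that loads Rab7, had 297 and 230.1 in Sin3B KO cells, against 437 and 515 in WT cells. Ankrd27 was thus higher (log2 fold change 0.44) and Mon1a lower (-0.86), both without overlap. Of 33 GTPase-activating proteins, 12 were above 0 and 21 below, with a median of -0.12, and 3 (9.09%, against 8.91% of all genes) had an unadjusted p under 0.05, all lower. Tbc1d16, reported to act on Rab4a in human cells, had 124 and 225 in Sin3B KO cells, against 417 and 566 in WT cells. Tbc1d10a, which acts on Rab27 and Rab35, had 91.3 and 56.2 in Sin3B KO cells, against 189 and 166 in WT cells. With Tbc1d8, at 209 and 242 in Sin3B KO cells, against 341 and 410.5 in WT cells, these had log2 fold changes of -1.54, -1.30 and -0.73. Tbc1d16 was the partner gene with the smallest p of the 3 named (limma, unadjusted p = 0.00348, Benjamini-Hochberg adjusted p = 0.548). The prenylation and recycling machinery, 7 genes, had a median of 0.17. Its member Rabif, which stabilises Rabs that hold no nucleotide, had 2141 and 2264 in Sin3B KO cells, against 1405 and 1788 in WT cells. Rab kinases and phosphatase were 2 measured genes, led by Ppm1h, which removes phosphate from Rabs, with 3523 and 4494 in Sin3B KO cells, against 3370 and 4414 in WT cells.

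Other small GTPases gave a setting for these values. The medians were 0.16 over 23 Arf and Arl genes, -0.21 over 18 Ras genes and 0.17 over 6 Rab-like genes, and none of these genes passed the adjusted threshold in limma. Unadjusted, 1 Arf and Arl gene, 2 Ras genes and 1 Rab-like gene had a p under 0.05 (4.35%, 11.1% and 16.7% of these lists, against 8.91% of all genes). The first was Arf2, with 1137 and 1298 in Sin3B KO cells, against 855 and 839 in WT cells. The Ras genes were Nras, with 11073 and 13080 in Sin3B KO cells, against 8984 and 8195 in WT cells, and Rap1b, with 1017 and 1042 in Sin3B KO cells, against 1479 and 1420 in WT cells. The Rab-like gene was Rabl2, with 729 and 775 in Sin3B KO cells, against 559.8 and 398 in WT cells. Rap1b was lower and the other three higher, all without overlap.

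**Figure D5:**
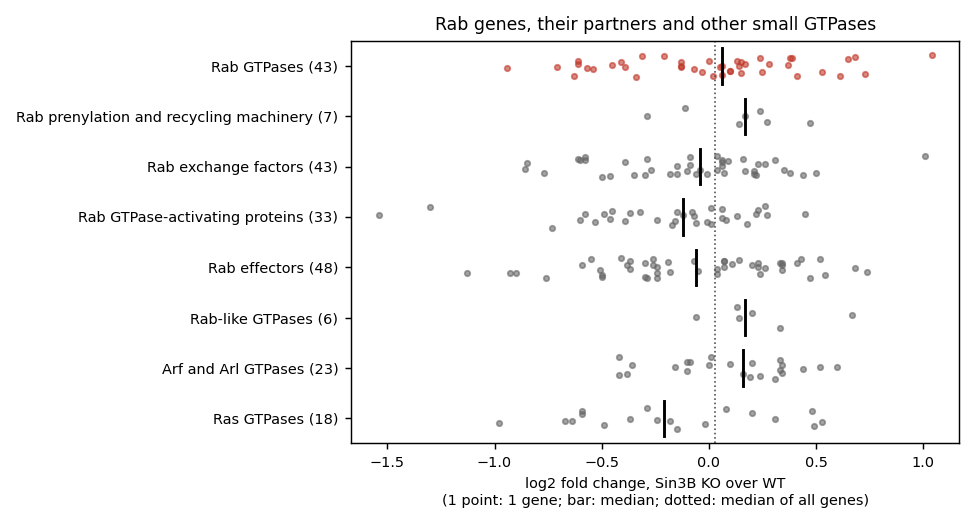
Log2 fold change of Sin3B KO over WT for Rab genes (red), their partner genes and other small GTPases (grey); 1 point is 1 gene, the black bar the median of the list and the dotted line the median of all genes, at 0.03. The kinases and phosphatase, 2 genes, are left out. The Rab median of 0.06 lies beside the line, and the lowest points are the GTPase-activating proteins Tbc1d16 and Tbc1d10a.

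Promoters, as RefSeq gives them on GRCm38.p6 from 250 bases before to 50 after the start, were found for 35 of the 43 Rab genes. Motifs were searched only in the 250 bases before the start. The E-box CACGTG, bound by the Myc and Mxd proteins of which Mxd recruits Sin3, occurred in 4 of the 35 (11.4%), in Rab20, Rab21, Rab23 and Rab27a, against 10.3% of the promoters of listed genes. Rab20, Rab21 and Rab23 had log2 fold changes of -0.41, -0.45 and -0.57 and Rab27a of 0.14. GGGCGG was in 26 (74.3%, against 65%), CCAAT in 18 (51.4%, against 40.8%), TTTGAA in 6 (17.1%, against 12.5%), and TTTGGCGC or TTTCGCGC in 0 (against 1.71%), with both strands read and overlaps counted for each motif alone. A match says only that the letters are there.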

How the data were processed

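Members and gene lists were chosen with earlier results of these data known. RNA was sequenced as polyA libraries made by a template-switching method for small inputs, per the labels' protocols; Bowtie, DESeq and mm9 are named in the submitters' processing notes, and how reads were counted is not given in the sources used here. Each deposited library value is a signal, made by the authors as read counts divided by a size factor, as the values show: all were whole multiples of a step per library within 0.01 of a step. The lowest mean in the table is 120.2, so weaker Rab genes are not analysed here, and 552 genes without library values were left out. The authors' deposited comparison, per the file headers, holds a log2 fold change with its error, a test score and p-values, raw and adjusted. The headers do not say how its fold changes were estimated, so they and those of limma are not the same measure. Rab44 had -0.07 there against -0.94 in limma, and Rab19 0.48 against 1.04, while Rab36 had -0.14 against -0.03.

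Values were analysed as log2(value + 1) with limma 3.58.1 (R 4.3.3, trended prior), all 4 libraries in 1 fit. Fold changes are on this scale. Tests were two-sided, with Benjamini-Hochberg adjustment over 9244 genes. The libraries' numbers 1 and 2 are those of the titles. The descriptions number the same libraries 1 and 3 in both genotypes, and whether a library numbered 2 was made is not stated. Over all genes, 95% confidence intervals had a median half-width of 0.597. Levels per kb use summed exon length from GENCODE M21 (GRCm38), matched by gene identifier; coordinates are given for the printed sequences only, on GRCm38, since the authors' build is mm9. Counts of shared 50-base words and overlaps use the same annotation. Genes named by rule were Sin3b, Rab genes with an unadjusted p under 0.05 in either comparison, the 3 highest per kb and the 3 with the lowest mean, those at least 2-fold apart between the numbers in both genotypes, the largest change of a role group without these, their paralogs, and of partner lists up to 3 genes with the smallest p under 0.05, or else the most abundant. Rab2a, Rab2b, Rab6a, Rab6b, Rab8a, Rab8b, Rab37, Rab18, Rab24 and Rab23 were named after their values were seen, as were Rab5b, Rab9, Rab12, Rab27a, Rab28, Rab32, Rab35 and the genes named for a motif. Count models were not run. Alternatives were 3 other scalings, pseudocounts of 0.1 and 5, a mean of at least 500, the number as a block, each library left out, and the longest transcript as length.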

Additional observations from a re-analysis of the deposited data

How the results depend on the processing

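No Rab gene passed the adjusted threshold in the genotype comparison under any alternative run. Rab genes with an unadjusted p under 0.05 numbered 2, against 1 with trimmed mean (TMM) scaling, 10 (23.3%, against 17% of all genes) with the number as a replicate block, and 1 to 8 with a library left out. The block raised the calls over all genes to 27 and over partner genes to 1, Tbc1d16 (limma, Benjamini-Hochberg adjusted p = 0.0435); a library left out gave 0 to 1 over all genes. The numbers are not shown to pair the samples: there are 2 pairs, and deviations of same-numbered libraries correlated at 0.465 over genes. The Rab median of 0.06 was 0.01 with TMM scaling, -0.06 with upper quartile scaling, -0.03 with equal totals, 0.14 at a mean of at least 500, and 0.02 to 0.16 with a library left out. For partner genes the median of -0.06 was -0.11, -0.17, -0.15 and 0.06 under these 4, and -0.15 to -0.04 with a library left out. Between the numbers, 2 Rab genes passed with TMM scaling, equal totals or a pseudocount of 0.1, Rab44 (2.39 to 2.46 over the scalings and pseudocounts) and Rab8b (0.81, 0.80 and 0.78). At a mean of at least 500, which leaves out Rab44, Rab8b passed (0.78).

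Of 58 named genes under these settings, 566 of 615 fold changes kept their direction and call, 47 reversed, and Sin3b (-1.25) and Tbc1d16 (-1.54) passed under the block. Rab1 was -0.03 with TMM, -0.09 with upper quartile and -0.06 with equal totals, and Ppm1h 0.00, -0.07 and -0.04. Upper quartile and equal totals gave Rab1b -0.06 and -0.03, Rab3a -0.05 and -0.02 and Rab31 -0.06 and -0.03. Upper quartile gave Rab38 and Rab14 -0.01, and a pseudocount of 5 gave Rab11b 0.00. With a library left out, Rab1 ranged from -0.25 to 0.30, Rab11a -0.14 to 0.61, Rab11b -0.32 to 0.32, Rab36 -1.11 to 1.05, Rab38 -0.05 to 0.26, Rab3a -0.12 to 0.25, Rab44 -2.43 to 0.55, Rab4b -0.11 to 0.46 and Rab6b -0.94 to 0.15. Likewise Rab5c ranged from -0.15 to 0.64, Rab10 -0.32 to 0.17, Rab14 -0.03 to 0.23, Rab17 -0.34 to 0.08, Rab20 -0.91 to 0.10, Rab27a -0.13 to 0.41, Rab27b -0.73 to 0.32, Rab31 -0.22 to 0.32, Rab33b -0.30 to 0.04, Rab35 -1.32 to 0.09, Rab43 -0.10 to 0.41 and Ppm1h -0.15 to 0.24. The cause was not tested. The edgeR tests and DESeq2 planned on recovered reads were not run. The listed values are whole steps, but that a step is 1 read was not established. Genes with a mean under 120.2 are not listed, although some listed genes had low values in a library, such as Ebf1 with 2.97 in WT 2. With 2 libraries a genotype, differences under the median interval half-width of 0.597 are mostly not detectable even at an unadjusted p under 0.05. At the adjusted threshold the main fit called 0 of 9244 genes. Sin3b at -1.25 was not called either (limma, Benjamini-Hochberg adjusted p = 0.548). Differences well above 0.597 can thus also be missed, and the lack of a call does not show that a Rab gene is unchanged.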
